A study of Mus musculus with 4 samples.

Results

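Genes of sterol and fatty acid metabolism were compared between invariant natural killer T (iNKT) cells of CD4-Vα14Tg mice and of wild-type (WT) mice. The set was named by gene symbol and held 37 genes: 16 enzymes of sterol synthesis, 6 regulators and efflux pumps of sterols, 9 enzymes of fatty acid synthesis, elongation and desaturation, and 6 enzymes of fatty acid oxidation. A probe set that carried the gene's symbol alone was found for 35 of the 37 (36 probe sets), and 33 of these lay above the expression floor and were tested among 13602 genes. Idi1 and Scd2 had only probe sets shared with other gene symbols and were not analysed here, and Scd1 and Fads2 lay below the floor.

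The CD4-Vα14Tg mice carry a transgene of the Vα14 T cell receptor α chain under control of the CD4 promoter, and the controls are WT mice. Total RNA of iNKT cells was hybridised to whole-transcript arrays, with 2 arrays per genotype. The labels speak of RNA from frozen tissue and give no organ, sorting gate, age, sex or number of mice. Whether the 2 arrays of a genotype came from separate animals is thus not given. The p-values measure only the spread between these arrays, which for each gene limma takes in part from the other genes. The 5 markers of T cells and iNKT cells with a probe set of their own (Cd3e, Cd3d, Cd3g, Lat and Zbtb16) read from 9.86 to 12.5 on the log2 scale on every array.

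In mammalian cells cholesterol is built from acetyl-CoA through mevalonate, farnesyl diphosphate, squalene and lanosterol, and the genes of these enzymes are switched on together by the membrane-bound transcription factor SREBP2 when sterols in the endoplasmic reticulum run low. SREBP1 acts likewise on fatty acid synthesis, SCAP escorts both factors to the Golgi for cleavage, and INSIG proteins hold SCAP back when sterols are plentiful. T cells that enter growth are known to raise both syntheses, whereas resting and memory T cells draw more on the oxidation of fatty acids in mitochondria, which CPT1A opens by coupling them to carnitine. iNKT cells recognise lipids presented by CD1d.

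The promoters of the sterol genes shared a sequence feature that the choice of the genes did not use. In RefSeq promoters of build GRCm38.p6, which run from 250 bases before to 50 bases after a gene's start, 30 of the 37 genes were matched with 36 promoters; Fdps, Fdft1, Sqle, Abcg1, Scd1, Scd2 and Fads1 were not matched. The letters CCAAT, the box bound by NF-Y, a partner of SREBP at sterol genes, were found on either strand in a promoter of all 13 matched sterol synthesis genes, against 41.1% of 27025 genes with any promoter in that table. Counted by promoter, 13 of the 16 promoters of sterol synthesis genes held the box (81.2%), against 37.4% of all 32851 promoters. At least 2 copies, counted over all promoters of a gene, were held by 9 of the 13 genes. The share of all genes with at least 2 copies was not counted. In the other groups the box stood in promoters of 3 of 5 regulators and efflux genes, 3 of 6 fatty acid synthesis genes and 1 of 6 oxidation genes. The E-box CACGTG stood in promoters of 7 of the 30 genes (Abca1, Dhcr7, Elovl5, Hsd17b7, Insig1, Sc5d and Scap), against 8.09% of all genes. The full sterol regulatory element SRE-1 was found in 0 of the 36 promoters and in 0.0913% of all promoters. Its looser spelling TCACNCCAC, which every SRE-1 match also holds, stood in Hmgcs1 alone, against 1.24% of all promoters. The repeated LXR site was found in 0 of the 36 and in 0.0152% of all promoters. All motifs were searched on both strands, and a match describes letters only.

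The stretches that hold these letters are shown for an early gene of the pathway (Hmgcs1) and a gene with repeated boxes (Mvk). They are also shown for enzymes that make and use lanosterol (Lss, Cyp51), the sterol sensor gene Insig1 and the oxidation gene Cpt1a. Capitals mark CCAAT or its complement ATTGG, TCACNCCAC in Hmgcs1 and CACGTG in Insig1, and bases are counted backwards from the gene's start.
Hmgcs1, chr13:119690102-119690322, plus strand, bases -249 to -29: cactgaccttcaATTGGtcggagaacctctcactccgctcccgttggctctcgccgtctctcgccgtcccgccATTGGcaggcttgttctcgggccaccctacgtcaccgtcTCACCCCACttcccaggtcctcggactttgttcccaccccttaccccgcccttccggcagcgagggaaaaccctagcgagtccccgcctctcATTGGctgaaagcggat
Mvk, chr5:114444084-114444268, plus strand, bases -185 to -1: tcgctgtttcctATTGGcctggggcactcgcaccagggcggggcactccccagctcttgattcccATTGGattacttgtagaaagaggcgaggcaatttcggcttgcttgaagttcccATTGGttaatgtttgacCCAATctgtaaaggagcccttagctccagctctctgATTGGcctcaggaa
Lss, chr10:76531531-76531559, plus strand, bases -74 to -46: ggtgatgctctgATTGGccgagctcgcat
Cyp51, chr5:4104710-4104738, minus strand, bases -41 to -13: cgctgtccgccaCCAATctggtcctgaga
Insig1, chr5:28071184-28071328, plus strand, bases -228 to -84: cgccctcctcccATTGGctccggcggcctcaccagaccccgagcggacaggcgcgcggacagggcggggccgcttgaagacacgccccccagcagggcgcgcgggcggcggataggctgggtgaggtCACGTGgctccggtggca
Cpt1a, chr19:3323270-3323298, plus strand, bases -31 to -3: agctgggctcagCCAATcacccgcggcgc

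No gene of the set passed the test between genotypes. Across all genes 1.95% were called by limma at an adjusted p under 0.05 (0.61% higher and 1.34% lower in CD4-Vα14Tg cells), and of the 33 genes tested here limma called 0, while 2 had an unadjusted p under 0.05, Cpt1a and Acaca, against 11.7% of all genes. The lowest log2 difference was -0.47 and the highest 0.27, and their median of 0.02 compares with -0.02 over all genes. Taken without sign, the median difference was 0.13, against 0.11 over all genes. Of the 33 differences 17 were positive and 16 negative, where 43.9% of all genes had a positive and 55.9% a negative one. The arrays of the genotypes did not overlap for 15 of the 33 genes, against 39.1% of all genes. The 95% interval of the difference, as limma gives it gene by gene, lay within a 2-fold change in either direction for 33 of 33 genes, against 96.1% of all genes. It lay within a 1.5-fold change for 28 of the 33, against 79.0% of all genes, the others being Hmgcs1, Cyp51, Fads1, Cpt1a and Cpt2. These are bulk RNA values after quantile normalization, in which fewer cells of a type and less RNA per cell cannot be told apart. Over all genes tested, 265 were called. Leaving out CD4-Vα14Tg replicate 1 gave 169 calls, and leaving out its replicate 2 or WT replicate 2 gave 166 in each case, with 0 genes of the set called in these fits.

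**Figure D1:**
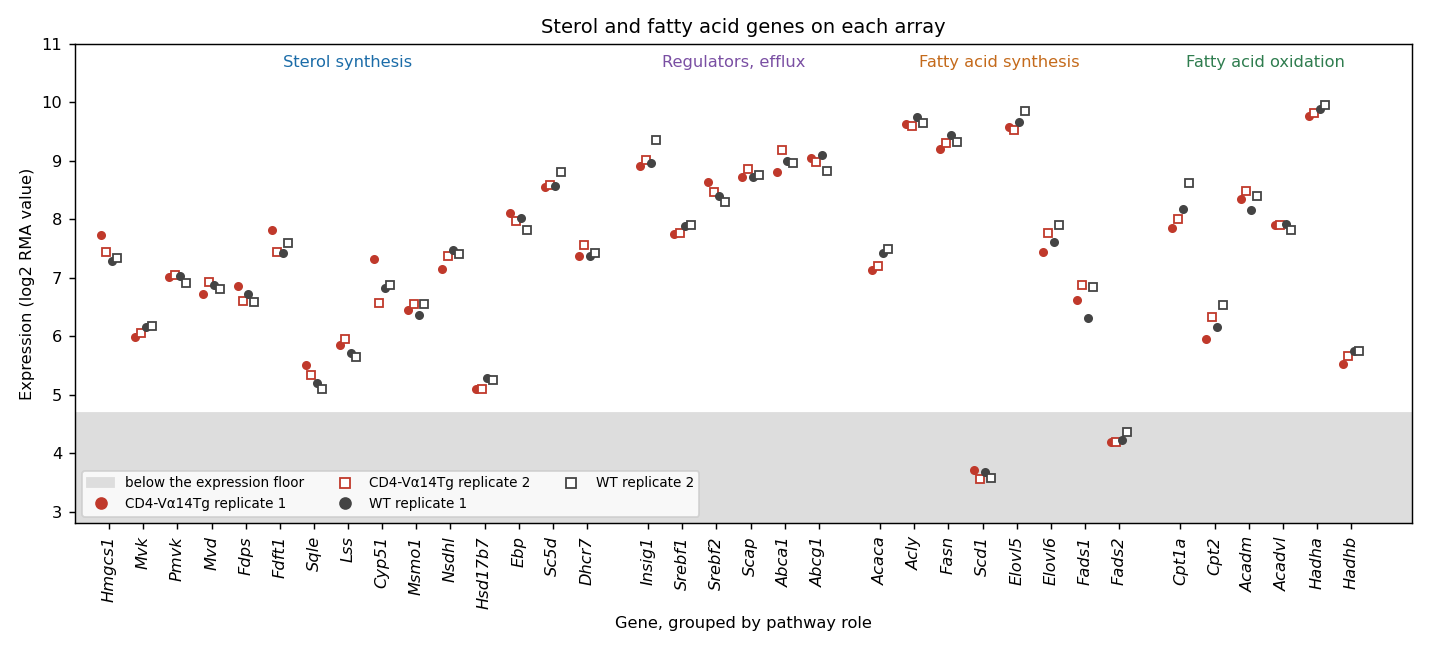
Log2 expression (RMA value, y axis) of the 35 genes with a probe set of their own (x axis, grouped by role) on each of the 4 arrays, CD4-Vα14Tg in red and WT in dark grey, replicate 1 filled and replicate 2 open; the grey band lies below the expression floor. Points of a gene mostly lie close together, Cyp51 spreads between the CD4-Vα14Tg arrays (7.33 and 6.57), and Scd1 and Fads2 lie in the band.

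Among the mevalonate steps, Hmgcs1, the cytosolic HMG-CoA synthase, read 7.73 and 7.44 on the CD4-Vα14Tg arrays and 7.29 and 7.35 on the WT arrays. Its groups did not overlap, with CD4-Vα14Tg higher by 0.27 on the log2 scale (1.20-fold, 95% interval -0.05 to 0.59, limma adjusted p = 0.548). That interval leaves room for a rise of up to 1.51-fold. Mevalonate kinase, Mvk, read 5.98 and 6.05 against 6.16 and 6.17, lower on both CD4-Vα14Tg arrays by a difference of -0.15 (limma adjusted p = 0.757). The next kinase, Pmvk, read 7.01 and 7.05 against 7.03 and 6.91, and the decarboxylase Mvd read 6.72 and 6.93 against 6.87 and 6.80. In both the arrays of the genotypes overlapped, with differences of 0.06 and -0.01. Farnesyl diphosphate synthase, Fdps, which feeds cholesterol as well as protein prenylation, read 6.86 and 6.61 against 6.72 and 6.59 and also overlapped (difference 0.08). Thus 3 of these 5 genes had a positive difference and 2 a negative one.

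All 3 genes of the squalene and cyclisation steps had a positive difference, against 43.9% of all genes. Sqle, squalene epoxidase, a rate-limiting step of the later pathway, read 5.51 and 5.33 on the CD4-Vα14Tg arrays against 5.21 and 5.10 in WT, a difference of 0.26 (1.20-fold, 95% interval -0.03 to 0.56, limma adjusted p = 0.501). Lss, lanosterol synthase, read 5.85 and 5.96 against 5.71 and 5.65, a difference of 0.23 (1.17-fold, limma adjusted p = 0.564). Both CD4-Vα14Tg arrays lay above both WT arrays in these genes, as they did for 15.7% of all genes. Sqle lay close to the expression floor, where arrays can understate differences. Fdft1, squalene synthase, which commits farnesyl diphosphate to sterols, read 7.81 and 7.44 against 7.42 and 7.60 and overlapped (difference 0.12, limma adjusted p = 0.899). The difference of Fdft1 turned to -0.07 without CD4-Vα14Tg replicate 1.

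After lanosterol no step passed the test either. Cyp51, the lanosterol demethylase, read 7.33 and 6.57 on the CD4-Vα14Tg arrays and 6.83 and 6.88 on the WT arrays, so that the WT values lay between the CD4-Vα14Tg ones. Its difference was 0.10 (95% interval -0.45 to 0.64, limma adjusted p = 0.961). Leaving out CD4-Vα14Tg replicate 1 turned it to -0.29, and leaving out replicate 2 of that genotype gave 0.48. Nsdhl, a dehydrogenase that takes part in removing methyl groups from the sterol ring, read 7.16 and 7.38 against 7.47 and 7.41. Hsd17b7, the ketoreductase of the same reaction series, read 5.09 and 5.11 against 5.28 and 5.25. Both were lower on each CD4-Vα14Tg array than on each WT array, each by a difference of -0.17 (limma adjusted p = 0.731 and 0.695). Msmo1, the methylsterol oxidase of that series, read 6.45 and 6.55 against 6.36 and 6.54 and overlapped. The isomerase Ebp read 8.11 and 7.98 against 8.02 and 7.81, and the desaturase Sc5d read 8.55 and 8.60 against 8.57 and 8.80. Dhcr7, the reductase that completes cholesterol, read 7.37 and 7.57 against 7.38 and 7.42. These 4 genes overlapped, with differences from -0.12 to 0.13.

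Across the 15 sterol synthesis genes the median difference was 0.07, with 10 positive and 5 negative. Arrays of the genotypes did not overlap for 3 higher and 3 lower genes, against 15.7% of all genes higher and 23.4% lower. The upper ends of their 95% intervals reached at most 0.64 and the lower ends -0.48. Left-out arrays gave medians from 0.03 (without WT replicate 2) to 0.06 (without CD4-Vα14Tg replicate 1). Markers of dividing cells, which are known to raise sterol synthesis, had a median difference of 0.33 over 11 genes. Of these 10 were positive, against 43.9% of all genes. Limma called 0, against 1.95%, and 1 had an unadjusted p under 0.05, against 11.7%. Replicate 1 was the higher for 1 of the 11 in each genotype. The median of replicate 1 minus 2 was -0.47 in CD4-Vα14Tg and -0.29 in WT. The summed log2 level of these 11 markers ran from 83.7 to 88.6 on the CD4-Vα14Tg arrays and from 80.9 to 84.4 on the WT arrays, and their part in the sterol values was not tested.

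**Figure D2:**
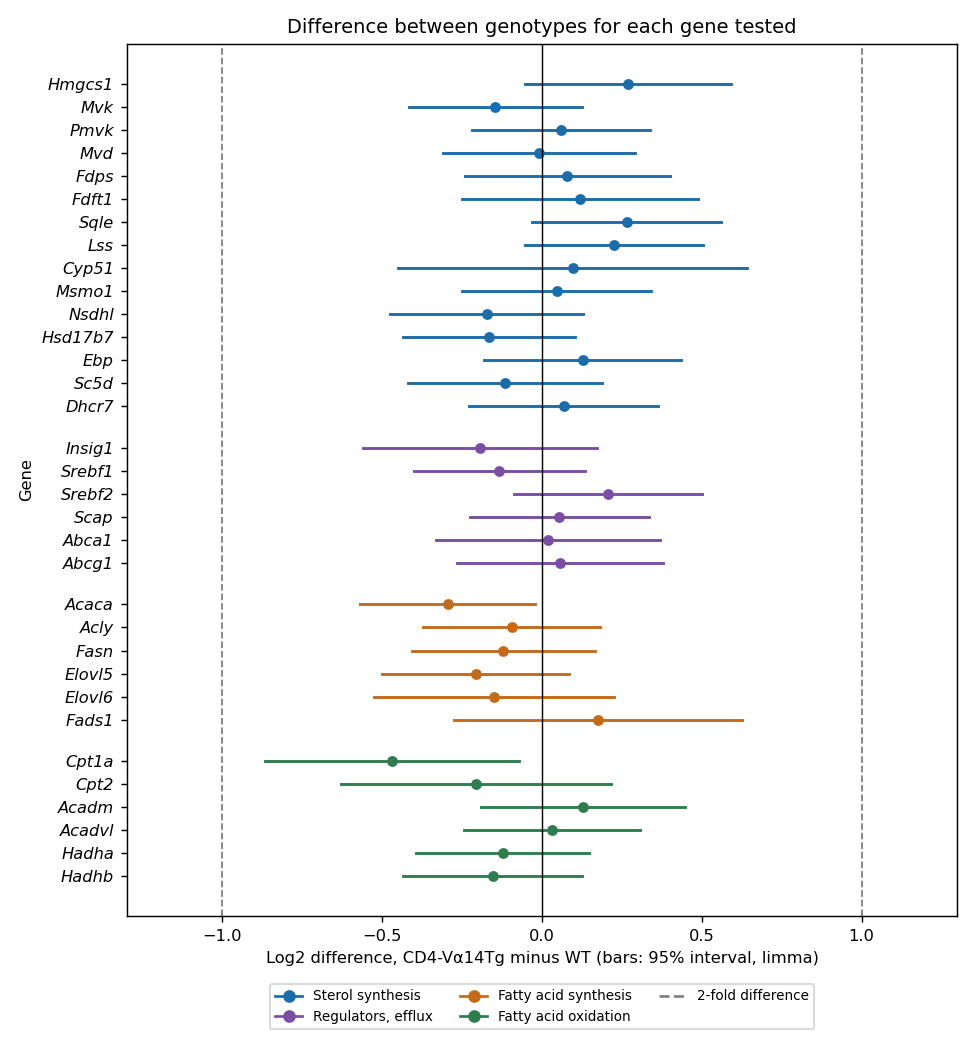
Log2 difference between CD4-Vα14Tg and WT (x axis, points) with its 95% interval from limma (bars) for the 33 genes tested (y axis), coloured by role, with dashed lines at a 2-fold difference. All intervals lie between the dashed lines, and those of Acaca and Cpt1a lie below 0 before adjustment for the number of genes.

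The regulators showed small differences in both directions. Srebf2, the gene of SREBP2, read 8.64 and 8.48 on the CD4-Vα14Tg arrays and 8.41 and 8.30 on the WT arrays. It was higher on both, by 0.21 (1.15-fold, 95% interval -0.09 to 0.50, limma adjusted p = 0.640). Srebf1, the gene of SREBP1, which drives fatty acid synthesis, read 7.76 and 7.76 against 7.89 and 7.90. It was lower on both by a difference of -0.13 (limma adjusted p = 0.782), with almost no spread between arrays of a genotype. Insig1, which retains SCAP and is itself an SREBP target, read 8.90 and 9.02 against 8.96 and 9.35 and overlapped. Its difference of -0.19 (limma adjusted p = 0.766) ran from -0.39 without WT replicate 1 to near 0 (-0.001) without WT replicate 2. Scap read 8.73 and 8.86 against 8.72 and 8.76. Scap had a second, dimmer probe set whose difference was -0.11 while that of the brighter was 0.05, so that its probe sets disagreed in direction.

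The efflux pumps Abca1 and Abcg1, which export cholesterol and are classic targets of the oxysterol receptors LXR, overlapped between genotypes. Abca1 read 8.82 and 9.18 on the CD4-Vα14Tg arrays and 8.99 and 8.97 on the WT arrays (difference 0.02, 95% interval -0.33 to 0.37). Abcg1 read 9.06 and 8.98 against 9.10 and 8.82 (difference 0.06, 95% interval -0.27 to 0.38). The limma adjusted p was 0.992 for Abca1 and 0.961 for Abcg1. Over the 6 regulators and efflux genes the median difference was 0.04, with 4 positive, against 43.9% of all genes, and 2 negative. For 6 of 6 the interval lay within a 1.5-fold change, against 79.0% of all genes. Leaving out CD4-Vα14Tg replicate 2 gave a median of -0.07, and leaving out its replicate 1 gave 0.07.

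No gene of fatty acid synthesis passed the test. Acaca, acetyl-CoA carboxylase, which makes the malonyl-CoA used by fatty acid synthase, read 7.14 and 7.20 against 7.43 and 7.49. Both CD4-Vα14Tg values lay below both WT values, with a difference of -0.30 (1.23-fold lower, 95% interval -0.57 to -0.02, unadjusted p = 0.0374, limma adjusted p = 0.372). The difference of Acaca ran from -0.33 to -0.27 when 1 array was left out. Acly, ATP citrate lyase, the source of cytosolic acetyl-CoA for both syntheses, read 9.62 and 9.59 against 9.76 and 9.65. Fasn, fatty acid synthase, read 9.20 and 9.31 against 9.44 and 9.32. In both the genotypes were ordered without overlap by a narrow margin, CD4-Vα14Tg lower by differences of -0.10 and -0.12 (limma adjusted p = 0.883 and 0.836).

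Among elongases and desaturases, Elovl5, which lengthens polyunsaturated chains, read 9.58 and 9.54 on the CD4-Vα14Tg arrays against 9.67 and 9.86 on the WT arrays. It was lower on both by a difference of -0.21 (95% interval -0.50 to 0.09, limma adjusted p = 0.635). Elovl6, which lengthens saturated chains, read 7.45 and 7.76 against 7.62 and 7.90 and overlapped (difference -0.15, limma adjusted p = 0.850). Fads1, a desaturase of polyunsaturated fatty acids, read 6.62 and 6.88 against 6.31 and 6.84, and its WT arrays differed more from each other than the genotypes did (difference 0.18, limma adjusted p = 0.858). Fads2, its neighbour in the genome and partner desaturase, was not above the floor on any array, at 4.20 and 4.19 against 4.22 and 4.36. Scd1, the main stearoyl-CoA desaturase of liver and fat, was likewise below it, at 3.71 and 3.56 against 3.69 and 3.58. Of the 6 tested genes of this group 5 had a negative difference, against 55.9% of all genes, and leaving out CD4-Vα14Tg replicate 1 brought Elovl6 to 0.0065. Of the 6 tested genes, 4 were lower without overlap between genotypes, against 23.4% of all genes, and the median was -0.14.

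Fatty acid oxidation held the set's most negative difference. Cpt1a, the carnitine palmitoyltransferase that gates entry of long chains into mitochondria, read 7.85 and 8.01 on the CD4-Vα14Tg arrays and 8.18 and 8.62 on the WT arrays. The CD4-Vα14Tg arrays lay below both WT arrays, by -0.47 on the log2 scale (1.39-fold lower, 95% interval -0.87 to -0.07, unadjusted p = 0.0263, limma adjusted p = 0.311). The WT arrays themselves differed by 0.44, and leaving out WT replicate 2 gave a difference between genotypes of -0.25, while leaving out WT replicate 1 gave -0.69. Cpt2, the second transferase, on the inner membrane, read 5.95 and 6.33 against 6.16 and 6.53 and overlapped (difference -0.21, limma adjusted p = 0.796).

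The enzymes of the oxidation spiral lay closer together. Acadm, the medium-chain acyl-CoA dehydrogenase, read 8.34 and 8.49 against 8.17 and 8.40, and Acadvl, its very-long-chain relative, read 7.90 and 7.91 against 7.92 and 7.82. Both overlapped, with differences of 0.13 and 0.03. Hadha read 9.77 and 9.82 against 9.89 and 9.95, and Hadhb read 5.52 and 5.66 against 5.74 and 5.74. These encode the α and β subunits of the mitochondrial trifunctional protein, are neighbours in the genome and start close together on opposite strands, their RefSeq promoters sharing 228 bases. Both were lower on each CD4-Vα14Tg array, Hadha by -0.12 and Hadhb by -0.15 on the log2 scale (limma adjusted p = 0.817 and 0.749). The median over the 6 oxidation genes was -0.14, with 4 negative, against 55.9% of all genes, and 2 positive. Of the 6 genes, 3 were lower without overlap, against 23.4% of all genes, and 0 were higher without overlap, against 15.7%. Leaving out CD4-Vα14Tg replicate 1 gave a median of -0.05, and leaving out WT replicate 2 gave -0.06.

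**Figure D3:**
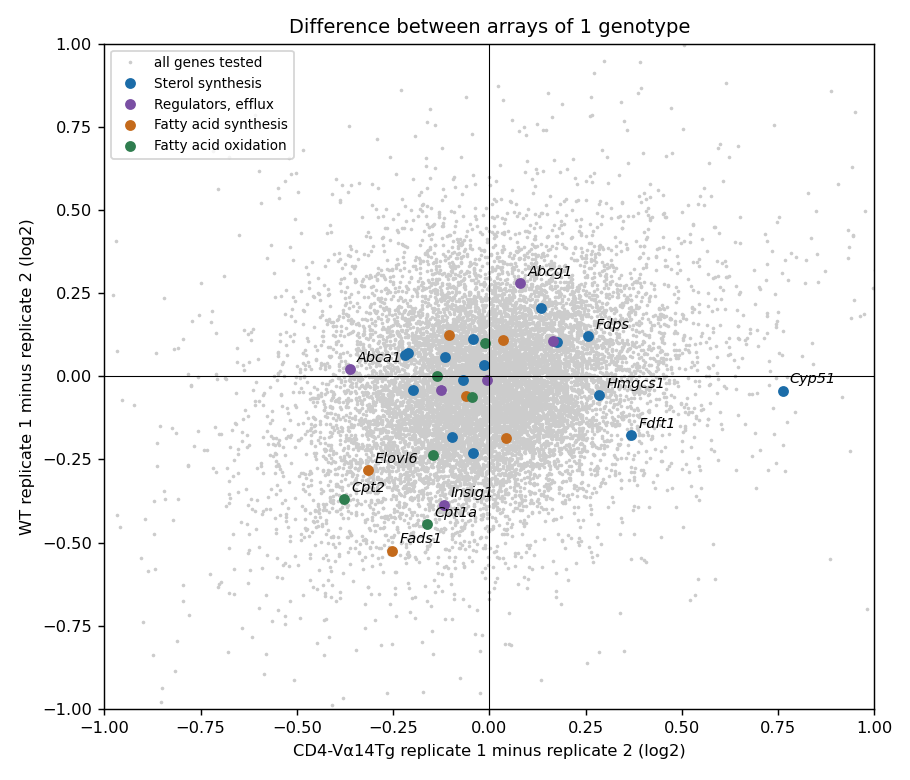
Log2 difference between the arrays of 1 genotype, replicate 1 minus replicate 2, in CD4-Vα14Tg (x axis) and WT (y axis), for the genes of the set (coloured points) and all genes tested (grey; axes end at 1 in either direction). Cyp51, Fdft1, Hmgcs1 and Fdps lie to the right, higher on CD4-Vα14Tg replicate 1, while Cpt1a, Cpt2, Fads1 and Insig1 lie low, higher on WT replicate 2.

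Arrays of 1 genotype differed from each other in some of these genes by more than the genotypes did. Between the CD4-Vα14Tg arrays the SD of Cyp51 was 0.54, larger than that of 99.0% of all genes tested, and in WT it was 0.03. On CD4-Vα14Tg replicate 1, Cyp51 was 0.76 above replicate 2, Fdft1 0.37, Hmgcs1 0.28 and Fdps 0.26. Sterol synthesis did not move as a whole between these arrays. Replicate 1 was the higher for 6 of its 15 genes, against 6600 of all 13602, and the median of the array differences was -0.04. Among the 6 oxidation genes replicate 1 was the higher for 0 in CD4-Vα14Tg and for 2 in WT (5989 of all 13602 genes). Their medians of replicate 1 minus 2 were -0.14 and -0.15, against -0.008 and -0.03 over all genes. Between the WT arrays, the SD of Fads1 was 0.37, that of Cpt1a 0.31 and that of Insig1 0.27, larger than in 96.9%, 94.3% and 91.3% of all genes. The median SD of the 33 genes was 0.095 in CD4-Vα14Tg and 0.075 in WT, against 0.10 and 0.098 over all genes. Replicates of a genotype have no order, and these values describe single arrays.

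No further gene listed for these pathways passed the test with all 4 arrays in the fit on genotype alone. Of 91 listed, 66 were tested: 19 of sterol handling, 19 of fatty acid synthesis and storage and 28 of oxidation. Limma called 0 in either direction, against 1.95% of all genes, and 3, 2 and 1 of them had an unadjusted p under 0.05, against 11.7% of all genes. The arrays of the genotypes did not overlap for 7 of 19, 7 of 19 and 14 of 28, against 39.1% of all genes. The medians were -0.03, 0.0015 and -0.05. Mylip, an LXR-induced ubiquitin ligase that removes lipoprotein receptors, came nearest, at 8.86 and 8.95 on the CD4-Vα14Tg arrays against 9.40 and 9.63 in WT. It was lower on both by a difference of -0.61 (1.53-fold, 95% interval -0.92 to -0.30, limma adjusted p = 0.0787). Hsd11b1, a reductase that activates glucocorticoids, read 5.84 and 6.39 against 6.81 and 7.08, a difference of -0.83 (1.78-fold lower, limma adjusted p = 0.111). It passed without CD4-Vα14Tg replicate 2 (difference -1.11, limma adjusted p = 0.0378), a fit that holds 1 CD4-Vα14Tg array and assumes that it varies like the WT arrays. The difference of Hsd11b1 was -0.56 without CD4-Vα14Tg replicate 1. With replicate number as a block, a pairing that the labels do not give, Mylip and Hsd11b1 passed (limma adjusted p = 0.0225 and 0.0072). Npc1, which moves cholesterol out of lysosomes, read 8.09 and 8.10 against 8.33 and 8.54 (difference -0.34, limma adjusted p = 0.333). Stard4, a sterol carrier, read 6.34 and 5.995 against 6.38 and 6.70 (difference -0.37, limma adjusted p = 0.459).

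On the side of fatty acid synthesis, Acss2, which makes acetyl-CoA from acetate, read 7.76 and 7.86 on the CD4-Vα14Tg arrays against 7.37 and 7.28 in WT. It was higher on both by 0.48 (1.40-fold, 95% interval 0.20 to 0.77, limma adjusted p = 0.121). Agpat4, an acyltransferase of phospholipid synthesis, read 5.31 and 5.32 against 4.61 (below the floor) and 4.96 and was higher on both by 0.53 (limma adjusted p = 0.165). Hacd3, a dehydratase of chain elongation, differed by 0.21 and Dgat1, which makes triglycerides, by -0.24. Among oxidation genes, Acot7, a thioesterase that frees fatty acids from CoA, read 7.70 and 7.60 against 7.95 and 8.07, a difference of -0.36 (limma adjusted p = 0.266). Acad10, an acyl-CoA dehydrogenase family gene, and Slc27a1, a fatty acid transporter, differed by 0.28 and 0.25, and Ppargc1b, a coactivator of mitochondrial genes, by -0.29, all with a limma adjusted p above 0.5.

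**Figure D4:**
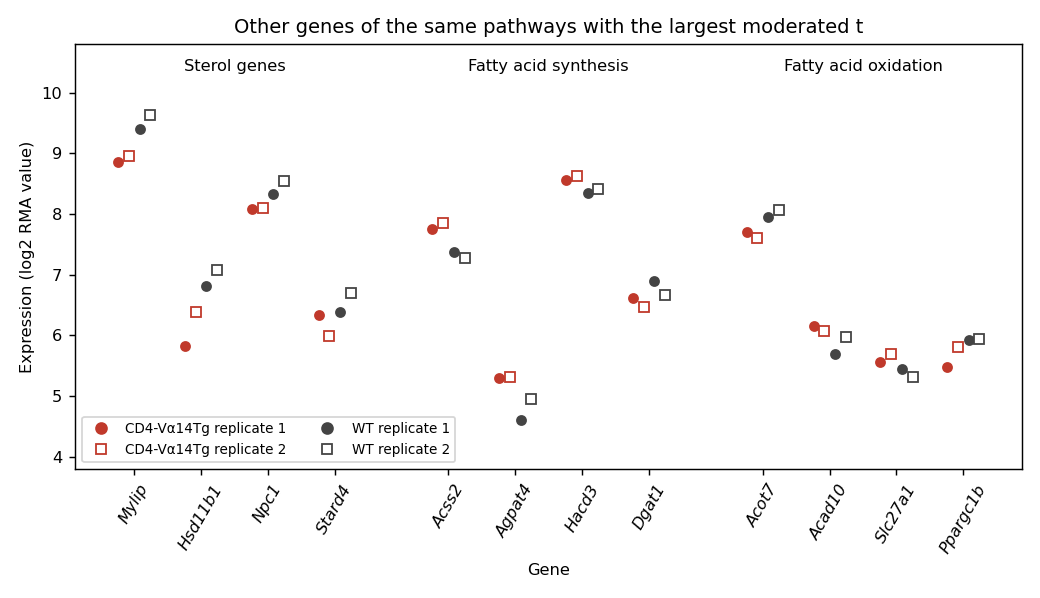
Log2 expression (RMA value, y axis) on each of the 4 arrays for the 4 genes with the largest moderated t in each of 3 lists of further pathway genes (x axis), CD4-Vα14Tg in red and WT in dark grey, replicate 1 filled and replicate 2 open. The genes were chosen for their large t, so that genotypes without overlap follow from the choice, and their largest difference in size is that of Hsd11b1 (-0.83).

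Markers of other cells that a sample of T cells could hold were read in the same way. Of 45 markers in 7 lists (B cells, macrophages and monocytes, dendritic cells, hepatocytes, adipocytes, double positive thymocytes and erythroid cells), 38 had a probe set of their own and 14 passed the floor, with 0 called by limma and 4 of these 14 at an unadjusted p under 0.05, against 11.7% of all genes. These were the B cell genes Cd22 (difference -0.64, limma adjusted p = 0.0785) and Cd79b (difference 0.48, limma adjusted p = 0.124), the dendritic cell gene Zbtb46 (difference -0.36, limma adjusted p = 0.245) and the macrophage gene Cd68 (difference -0.32, limma adjusted p = 0.401). Their part in the lipid gene values was not tested. Cd68 read from 6.71 to 7.19 and the erythroid gene Tfrc, which dividing cells also express, from 7.37 to 7.71 on the 4 arrays. The hepatocyte marker Alb read from 3.64 to 3.83 and the adipocyte marker Adipoq from 3.62 to 3.86 on the 4 arrays, below the floor. Above it on all 4 arrays were the hepatocyte markers Apoa1 (5.26 to 5.63), Apoa2 (5.41 to 5.89) and Ttr (4.70 to 4.87) and the adipocyte markers Plin1 (5.39 to 5.85) and Retn (5.17 to 5.47). The summed levels of the 7 hepatocyte markers ran from 30.7 to 31.5 on the CD4-Vα14Tg arrays and from 30.7 to 30.8 on the WT arrays, and those of the 6 adipocyte markers from 26.2 to 26.3 and from 25.7 to 26.5. Among macrophage markers Cd68 alone passed the floor, and Csf1r, Adgre1, Lyz2, Cd14 and Fcgr1 did not.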

How the data were processed

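Gene expression was measured on 4 arrays. The authors deposited 1 log2 value per probe set and array (41345 probe sets, array medians 5.04 to 5.07). RMA and Affymetrix Power Tools made them, per the submitters' processing notes. For versions, options and genome build, nothing is given in the sources used here. That the scale is log2 follows from the range of the values. The number of arrays limits the precision.

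Probe sets with 1 symbol in the platform annotation (23521, for 22180 genes; 1814 had several symbols and 16010 none) were used, with the brightest probe set per gene. A gene was tested when it reached the 40th percentile of named probe sets (the expression floor, 4.65 to 4.69) on at least 2 arrays. The genotypes were compared in R 4.3.3 with limma 3.58.1 (lmFit, eBayes, two-sided, Benjamini-Hochberg over 13602 genes, threshold 0.05), checked on simulated data. Each adjusted p is from this model; errors of single groups are SDs of 2 arrays.

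Genes and lists were chosen with earlier results of these data known. Named were all genes of the set and, of further pathway genes, those past the threshold or else the 4 with the largest moderated t per list. Alternatives changed the floor, normalization, probe set rule, variance model, replicate block and arrays used. Python 3.11.15, pandas 2.3.3, numpy 2.4.6 and matplotlib 3.10.9 prepared tables and plots.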

Additional observations from a re-analysis of the deposited data

How the results depend on the processing

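Under all 13 alternatives 0 genes of the set were called by limma or by the ordinary linear model, and the lowest adjusted p of any of them was 0.0775 (Cpt1a, replicate block). Leaving out 1 array turned the sign in 14 of 132 values, in 12 of the 33 genes; these fits hold a lone array, assumed to vary like the other genotype's. Stricter floors, variance models and the block leave the differences as they are by construction. The count of all genes called was 0 with the ordinary linear model, which borrows no spread across genes, 413 with probe sets tested singly, and from 166 to 221 when 1 array was left out. Replicate numbers are shared by the genotypes, but nothing in the labels pairs the arrays; replicate 1 minus 2 correlated at 0.262 between genotypes over genes tested, for 2 pairs. With the replicate block 674 genes were called, and 2 of the further pathway genes, Mylip (adjusted p = 0.0225) and Hsd11b1 (adjusted p = 0.0072); that count was 0 to 1 with 1 array left out.

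Signs turned when 1 array was left out for Mvd (-0.115 to 0.096), Fdps (-0.049 to 0.208), Fdft1 (-0.0665 to 0.3025), Cyp51 (-0.2855 to 0.4765), Msmo1 (-0.045 to 0.136), Dhcr7 (-0.031 to 0.166), Scap (-0.009 to 0.117), Abca1 (-0.1625 to 0.1995), Abcg1 (-0.0845 to 0.1965), Elovl6 (-0.3095 to 0.0065), Fads1 (-0.0865 to 0.4375) and Acadvl (-0.019 to 0.082). Scap was also at -0.0278 with the mean of its probe sets. None of these genes was called, and the size of their reported difference was at most 0.18. The stricter floor, at the 60th percentile, left out 3 genes of the set. With 2 arrays per genotype, real changes could go uncalled. The intervals given are not adjusted for the number of genes and do not mark a limit of detection. Those of Cpt1a and Acaca exclude 0, and neither gene was called. Signal near the floor (Sqle, Hsd17b7 and Hadhb, the 3 genes left out by the stricter floor) can understate differences.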
